A study of Homo sapiens with 12 samples.

Results

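The SLC7 genes encode amino acid transporters, and SLC3A2 encodes the heavy chain (CD98, 4F2hc) that carries several of them to the plasma membrane. The genes described here are the 9 transporters SLC7A1, SLC7A2, SLC7A3, SLC7A5, SLC7A6, SLC7A7, SLC7A8, SLC7A11 and SLC3A2, out of 33093 genes in the count table. The set was chosen by name around SLC7A3, which was selected on its loss in S80A cells in these same libraries. The difference of SLC7A3 between the genotypes is therefore given as a description, with no test. All 9 genes passed the filter on low counts.

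RNA-seq was performed on HEK293T cells, a human embryonic kidney line, either wild-type (WT) or carrying a serine 80 to alanine substitution (S80A) in NFKB1, the gene of the NF-κB subunit p50. The substitution was introduced with CRISPR/Cas9 and a single-stranded donor that also carried silent changes and a HindIII site, and edited cells were taken from serial dilutions. How many S80A clones were sequenced is not given in the sources used here, so genotype and clone cannot be told apart. WT and S80A cells were harvested either without treatment or 3 h after addition of TNFα at 10 ng/ml, giving 4 groups of 3 samples, which the study describes as generated independently. Whether they came from separate cultures or days is not given in the sources used here, so p-values measure the spread between these samples. Each library held between 15624878 and 20889577 counts.

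Transporters of the SLC7 family fall into distinct classes. The cationic amino acid transporters SLC7A1, SLC7A2 and SLC7A3 act on their own and carry arginine, lysine and ornithine. The remaining members are light chains that pair with SLC3A2 and exchange large neutral amino acids (SLC7A5, SLC7A8), cationic for neutral amino acids (SLC7A6, SLC7A7) or cystine for glutamate (SLC7A11). Shortage of amino acids is known to raise several of these genes through the transcription factor ATF4, which binds amino acid response elements. The comparisons below ask whether another transporter stood higher in the cells that lacked SLC7A3 transcripts.

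The libraries were first checked against markers of the cell line. All 8 HEK293 markers had at least 10 counts in every WT library, with summed normalised counts between 16046 and 20151. In S80A cells 7 of 8 markers had at least 10 counts in every untreated library and 6 of 8 after TNFα, where PAX2 had as few as 9. The sums in S80A libraries ranged from 14139 to 19226, most of it VIM, with between 9168 and 14194 normalised counts. NEFM, a neurofilament gene, had between 3 and 6 counts in S80A libraries, where every WT library had at least 1774. Of 8 markers of other cells, 7 had at most 3 counts in every library, the exception being ACTA2. Replicate 2 of untreated S80A cells stood apart on the second principal component of the libraries (19.0% of the variance), at -39.0 where the other 11 lay between -11.7 and 23.1. This library was the lowest of 12 for SLC7A1, SLC7A5, SLC7A6 and SLC7A8, so values without it are given beside the results for these genes. Its part in those results is shown by these values and was not otherwise tested. Replicate 1 of TNFα-treated S80A cells was in turn the highest of 12 for the same genes. Ranges over the fits that left out 1 library are therefore also given.

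SLC7A3 (chrX:70925579-70931125, minus strand, GRCh38), a cationic transporter best known from neural tissue, was read in every WT library and was almost absent from S80A libraries. Normalised counts are counts scaled to a common effective library size. In untreated WT cells SLC7A3 had 127, 76.9 and 82.5 normalised counts in replicates 1 to 3, and in TNFα-treated WT cells it had 97.6, 78.0 and 73.4. In S80A cells, replicate 1 had 0.927 normalised counts untreated and 0.904 after TNFα, each from 1 read, and the other 4 libraries had 0. The genotypes did not overlap under either condition. Summed over replicates, 289 counts in untreated WT cells stood against 1 in S80A cells, a ratio of 290 with an exact 95% interval of 51.6 to 11492. After TNFα, 248 counts stood against 1, a ratio of 239 (42.5 to 9467). These intervals cover counting error only and leave out the spread between replicates. They are not a test, since SLC7A3 was chosen on these values. In bulk RNA, fewer cells with the transcript and fewer transcripts per cell cannot be told apart.

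The tested genes on either side of SLC7A3, between 128 and 505 kb away on the X chromosome, were not lost with it. Of the 5 listed genes on each side, 5 were expressed enough to be tested. Over both conditions the log2 fold change of S80A against WT was 0.08 ± 0.06 (SE; adjusted p = 0.385, from edgeR's quasi-likelihood fit, adjusted by Benjamini-Hochberg) for KIF4A and -0.15 ± 0.07 (adjusted p = 0.153) for DLG3. On the other side it was -0.11 ± 0.05 (adjusted p = 0.167) for SNX12, -0.10 ± 0.11 (adjusted p = 0.618) for FOXO4 and -0.06 ± 0.17 (adjusted p = 0.874) for MED12. The nearest gene, TEX11, lies 16.9 kb away and had at most 1.20 normalised counts in untreated S80A cells and 0 in the WT libraries. Its counts therefore cannot show whether it was kept.

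**Figure D1:**
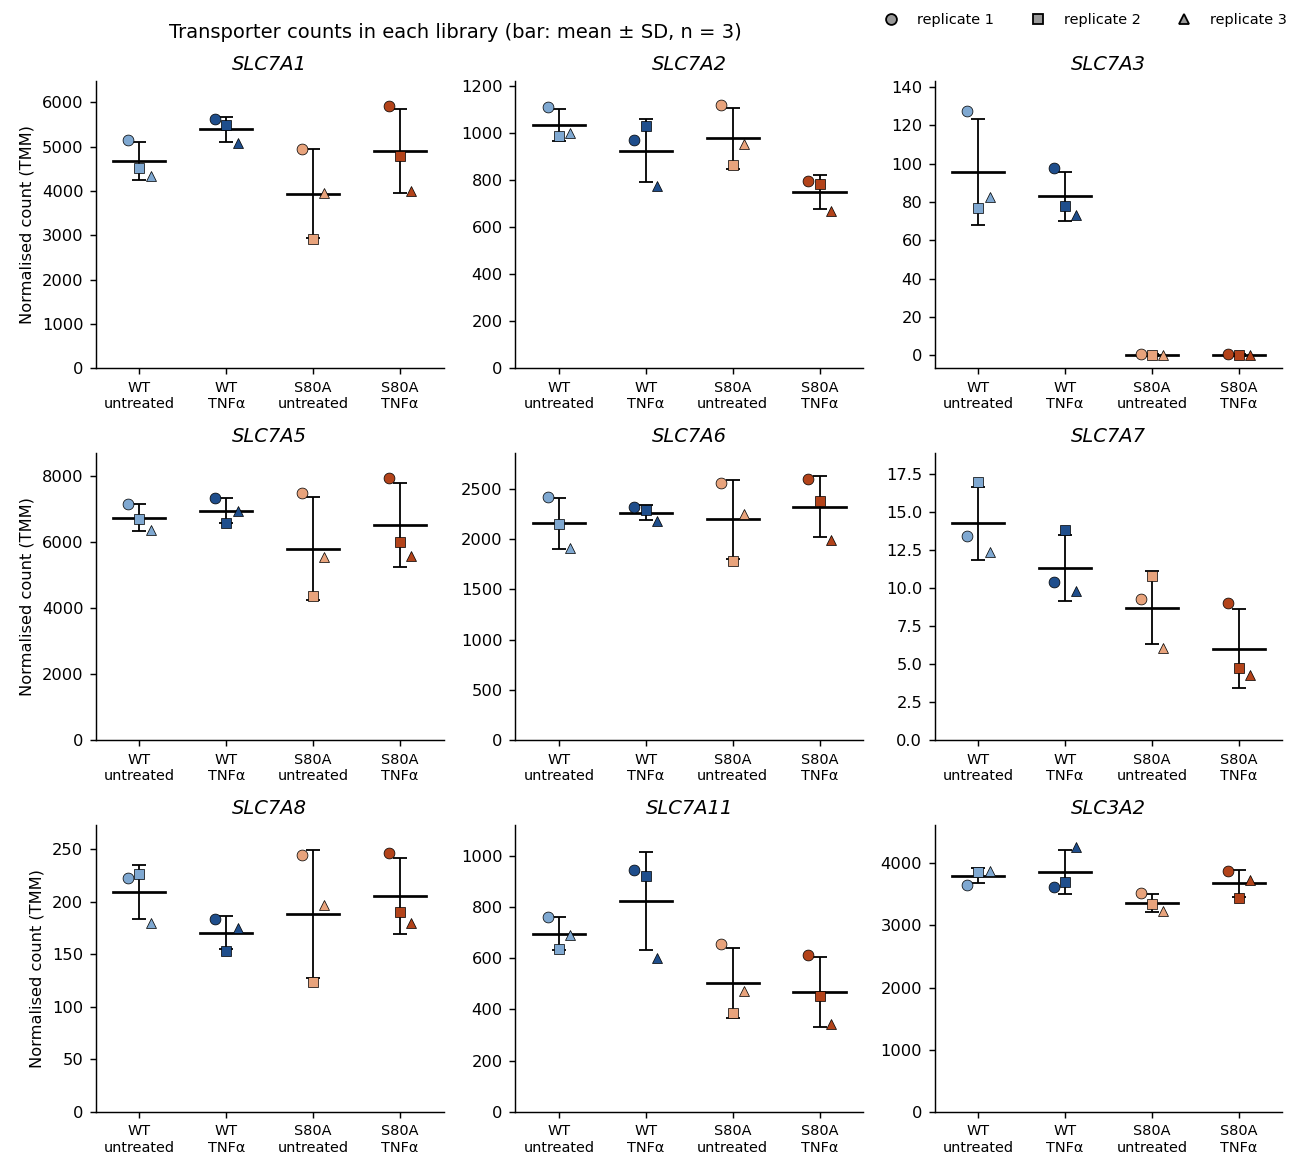
Normalised counts (TMM scaling, linear axes) of the 9 transporters in each of 12 libraries, by group, with the mean and SD of 3 replicates and a symbol for each replicate number. SLC7A3 falls from between 73.4 and 127 in WT libraries to at most 0.927 in S80A libraries, while the other 8 genes keep counts in every group.

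SLC7A1 (chr13:29509414-29595688, minus strand), the widely expressed cationic transporter, was the most highly read of the class. Its normalised counts were 5156, 4528 and 4335 in untreated WT cells and 4938, 2925 and 3954 in untreated S80A cells. After TNFα they were 5618, 5495 and 5080 in WT cells and 5908, 4799 and 4007 in S80A cells. The genotypes overlapped under both conditions, and the S80A libraries were more spread out than the WT libraries. Averaged over both conditions, SLC7A1 differed by -0.19 on the log2 scale (95% interval -0.43 to 0.05, adjusted p = 0.295). Without replicate 2 of untreated S80A cells the difference was -0.10 (adjusted p = 0.445). Over the 12 fits that left out 1 library it ran from -0.29 to -0.10 (adjusted p between 0.0637 and 0.506).

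SLC7A2, the other cationic transporter, is induced together with arginine metabolism in many immune cells. It had 1113, 988 and 1002 normalised counts in untreated WT cells and 1120, 865 and 953 in untreated S80A cells. After TNFα it had 970, 1031 and 775 in WT cells and 797, 785 and 667 in S80A cells. The groups overlapped within each condition, with 1 of the 3 treated WT libraries inside the range of the treated S80A libraries. Over both conditions the log2 difference was -0.19 (95% interval -0.37 to -0.01), which did not pass the test after adjustment (adjusted p = 0.154). Leaving out replicate 3 of TNFα-treated WT cells brought it past the threshold, at -0.24 (adjusted p = 0.0482) over both conditions and -0.41 (adjusted p = 0.0414) after TNFα. This was the only 1 of the 12 fits that left out 1 library to do so. The weakest values among them were -0.15 over both conditions and -0.22 after TNFα, with adjusted p up to 0.315 and 0.458.

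Because the 3 cationic transporters carry the same amino acids, their levels were also set side by side per transcript length, as RPKM, the normalised counts per kilobase of the MANE transcript scaled to the depth of the library. In WT cells the levels over 6 libraries were 37.0 ± 3.77 RPKM (SD) for SLC7A1, 6.94 ± 0.79 for SLC7A2 and 2.15 ± 0.49 for SLC7A3. SLC7A3 thus made up 5.18 ± 0.98% (SD, n = 3) of the summed level in untreated WT cells and 4.14 ± 0.46% after TNFα. In S80A cells its share was 0.017% untreated and 0.015% after TNFα.

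The summed level of the class was no higher in S80A cells. It was 43.95 ± 4.26 RPKM (SD, n = 3) in untreated WT cells and 35.9 ± 8.31 in untreated S80A cells, and 48.2 ± 3.18 against 41.3 ± 7.46 after TNFα. Without replicate 2 the untreated S80A sum was 40.02 ± 5.96 RPKM (SD, n = 2), from libraries at 35.8 and 44.2. The spread of this sum between S80A replicates was larger than the whole level of SLC7A3 in WT cells. The sum was not tested, and the SD of single libraries does not give the precision of a genotype difference. Whether a rise of the sum of that size could be detected is therefore not known. For SLC7A1 the SD in S80A cells was also larger than the SLC7A3 level, at 7.39 RPKM untreated and 7.01 after TNFα. For SLC7A2 that SD was smaller than the SLC7A3 level, at 0.92 and 0.51 RPKM. SLC7A2 stood at 6.94 ± 0.79 RPKM in WT cells and 6.12 ± 1.11 in S80A cells (SD, n = 6), so no rise was seen.

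On MANE lengths the whole set in WT cells ran, from high to low, SLC3A2, SLC7A5, SLC7A1, SLC7A6, SLC7A2, SLC7A11, SLC7A8, SLC7A3 and SLC7A7. SLC7A8 (2.42 RPKM) and SLC7A3 (2.15 RPKM) were the only neighbours in this order that lay within 1 SD of each other. SLC7A7 was last, at 0.332 ± 0.068 RPKM in WT cells and 0.191 ± 0.070 in S80A cells (SD, n = 6).

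**Figure D2:**
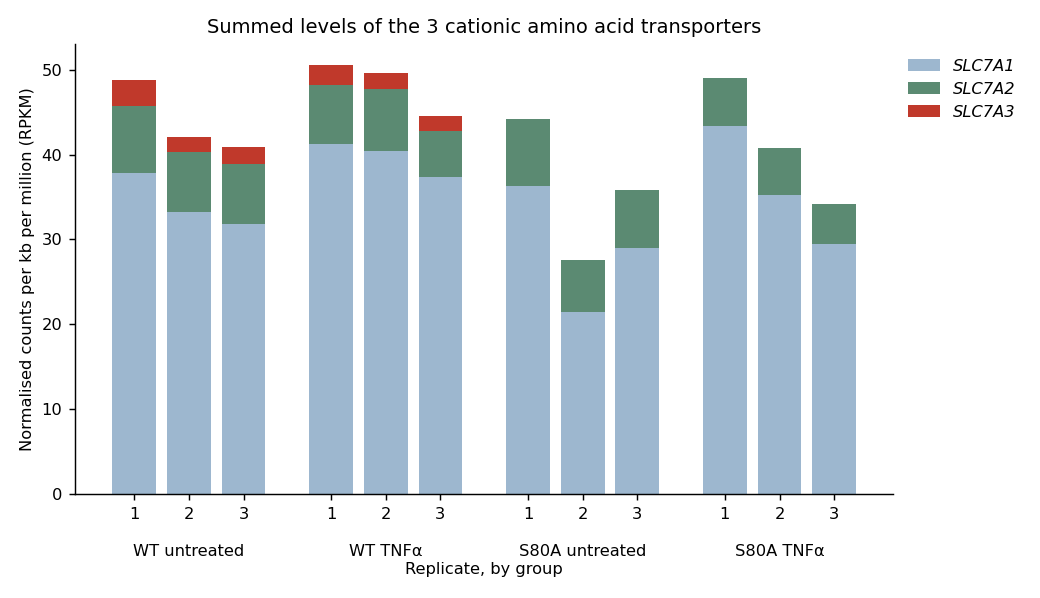
Levels per transcript length (RPKM, linear axis from 0) of SLC7A1, SLC7A2 and SLC7A3 stacked in each of 12 libraries. SLC7A3 is the thin top segment in WT libraries, about 4 to 5% of the sum, and is not visible in S80A libraries, whose sums range from 27.6 in replicate 2 of untreated cells upward.

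SLC3A2 (chr11:62856004-62888880, plus strand), the heavy chain of the light-chain transporters, had the highest level per MANE transcript length of the set, at 110 ± 6.84 RPKM (SD, n = 6) in WT cells and 101 ± 6.82 in S80A cells. It had 3657, 3856 and 3878 normalised counts in untreated WT cells and 3516, 3347 and 3232 in untreated S80A cells, and these groups did not overlap. After TNFα it had 3620, 3700 and 4268 in WT cells and 3872, 3443 and 3724 in S80A cells, which overlapped. The untreated difference of -0.17 ± 0.08 (SE) on the log2 scale did not pass the test (adjusted p = 0.234), and the difference over both conditions was -0.12 (95% interval -0.24 to -0.003, adjusted p = 0.160).

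The promoters of SLC7A1 and SLC3A2 are shown because both hold a match to an amino acid response element, the sequence through which ATF4 is known to act on genes of amino acid supply. The promoters of SLC7A1, SLC7A5, SLC7A6, SLC7A7, SLC7A8 and SLC3A2 were searched, and those of SLC7A2, SLC7A3 and SLC7A11 were not analysed here. The search ran from 250 bases before to 50 bases after each start (RefSeq, GRCh38.p14), for TGATGNAAN on both strands. The match is in capitals, and each window is written on the strand of its gene, chr13:29595663-29595691 (minus) for SLC7A1 and chr11:62881725-62881748 (plus) for SLC3A2.
SLC7A1: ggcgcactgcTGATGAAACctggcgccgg
SLC3A2: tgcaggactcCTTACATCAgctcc
The SLC7A1 match begins 7 bases from the listed start on the strand of the gene, and the SLC3A2 match begins 36 bases from a listed start and reads on the opposite strand. Of 35116 promoters of this length, 3.61% held a match. None of the 6 promoters searched held a match to the κB consensus that 5.91% of all promoters held. A match in letters is a description and not evidence of binding.

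SLC7A5 (LAT1), which brings in leucine and other large neutral amino acids, was the most highly expressed light chain at 81.0 ± 4.32 RPKM in WT cells and 72.8 ± 15.8 in S80A cells (SD, n = 6). Its normalised counts were 7152, 6701 and 6352 in untreated WT cells and 7472, 4367 and 5556 in untreated S80A cells. After TNFα they were 7325, 6581 and 6930 in WT cells and 7942, 6002 and 5564 in S80A cells. In both conditions replicate 1 of the S80A cells was above every WT library and the other replicates were below every WT library. The log2 difference over both conditions was -0.16 (95% interval -0.40 to 0.09, adjusted p = 0.408), and -0.07 (adjusted p = 0.632) without replicate 2 of untreated S80A cells. Over the 12 fits that left out 1 library it ran from -0.27 to -0.07 (adjusted p between 0.0612 and 0.632). The pseudogenes SLC7A5P1 and SLC7A5P2 had at most 31 and 25 counts in any library.

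SLC7A8 (LAT2), which carries a similar range of neutral amino acids, was expressed at a lower level, 2.42 ± 0.37 RPKM in WT cells and 2.51 ± 0.58 in S80A cells (SD, n = 6). It had 223, 226 and 179 normalised counts in untreated WT cells and 245, 124 and 197 in untreated S80A cells. After TNFα it had 184, 153 and 175 in WT cells and 247, 190 and 180 in S80A cells. The groups overlapped in both conditions, and the log2 difference was -0.14 (adjusted p = 0.757) in untreated cells and 0.27 (adjusted p = 0.469) after TNFα. Over both conditions it was 0.07 (95% interval -0.24 to 0.37, adjusted p = 0.817). Without replicate 2 of untreated S80A cells, the lowest library, the SLC7A8 difference turned to 0.077 (adjusted p = 0.829) in untreated cells and was 0.18 (adjusted p = 0.283) over both conditions.

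SLC7A6 and SLC7A7 exchange cationic for neutral amino acids, and SLC7A6 was by far the more abundant in these cells. SLC7A6 had between 1910 and 2415 normalised counts in WT libraries and between 1778 and 2597 in S80A libraries, with a log2 difference over both conditions of 0.03 (95% interval -0.16 to 0.23, adjusted p = 0.860). Without replicate 2 of untreated S80A cells the SLC7A6 difference was 0.0997 (adjusted p = 0.378). Its exons overlap those of SLC7A6OS on the opposite strand by 3372 bases, and whether counting used strand is not given in the sources used here. SLC7A6OS had between 121 and 210 counts per library.

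SLC7A7 was close to the limit of what these libraries can resolve. It had 13, 19 and 12 reads in untreated WT cells and 10, 14 and 10 in TNFα-treated WT cells. In S80A cells it had 10, 9 and 7 reads untreated and 10, 4 and 4 after TNFα. As normalised counts, the S80A libraries lay below the WT libraries in both conditions. The log2 difference over both conditions was -0.80 ± 0.25 (SE) and passed the threshold in the edgeR test (adjusted p = 0.0426). SLC7A7 passed the filter on low counts through the WT libraries, where it was higher, so this call is given as a description. Without the filter the edgeR adjusted p was 0.0740. The call did not pass with DESeq2 (adjusted p = 0.150), and it was lost in 9 of the 12 fits that left out 1 library (adjusted p between 0.0588 and 0.113). It held only without replicate 3 of TNFα-treated WT cells, replicate 2 of untreated S80A cells or replicate 1 of TNFα-treated S80A cells.

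SLC7A11 (xCT; chr4:138164097-138242349, minus strand), the cystine importer that supplies glutathione synthesis, was lower in S80A cells. It had 762, 636 and 692 normalised counts in untreated WT cells and 654, 386 and 471 in untreated S80A cells. After TNFα it had 946, 922 and 602 in WT cells and 611, 451 and 342 in S80A cells. In each condition only replicate 1 of the S80A cells reached into the range of the WT libraries, above the lowest WT library. Over both conditions SLC7A11 differed by -0.64 ± 0.16 (SE) on the log2 scale, a ratio of 0.644 with a 95% interval of 0.511 to 0.810 (adjusted p = 0.0113).

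The difference of SLC7A11 was -0.46 ± 0.22 (adjusted p = 0.262) in untreated cells and -0.81 ± 0.22 (adjusted p = 0.0396) after TNFα. That these 2 values differ from each other was not shown, since the interaction of genotype and TNFα was -0.35 ± 0.31 (adjusted p = 0.911). The call over both conditions held in every one of the 12 fits that left out 1 library (adjusted p up to 0.0314) and was -0.56 (adjusted p = 0.0115) without replicate 2 of untreated S80A cells. The call after TNFα was lost in 7 of those 12 fits (adjusted p between 0.0525 and 0.149), without replicate 1 or 2 of TNFα-treated WT cells, replicate 2 or 3 of TNFα-treated S80A cells, replicate 2 or 3 of untreated WT cells, or replicate 3 of untreated S80A cells. Per transcript length its level was 4.25 ± 0.81 RPKM in WT cells, above SLC7A8, and 2.72 ± 0.69 in S80A cells (SD, n = 6), within the SD of SLC7A8 there. The antisense gene SLC7A11-AS1 had at most 3 counts in any library.

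Across the 8 transporters other than SLC7A3, none was called higher in S80A cells in any comparison. In untreated cells 0 of 8 were called in either direction with edgeR, where 6.26% of all 14383 genes tested were called, with 2 at an unadjusted p under 0.05 and 0 called with DESeq2. After TNFα 1 of 8 was called (SLC7A11), where 7.36% of all genes were called. Over both conditions 2 of 8 were called (SLC7A7 and SLC7A11), both lower, where 16.7% of all genes were called and 9.47% were called lower. The call of SLC7A7 is a description, since that gene passed the filter on low counts through the WT libraries. The upper ends of the 95% intervals over both conditions, not adjusted for the number of genes, were 1.04 times the WT level for SLC7A1, 0.995 for SLC7A2, 1.06 for SLC7A5, 1.17 for SLC7A6, 1.29 for SLC7A8 and 0.998 for SLC3A2. These ends are from the fit with every library. Without replicate 2 of untreated S80A cells the log2 differences of these genes, in the same order, were higher, at -0.10, -0.15, -0.07, 0.10, 0.18 and -0.119. Upper ends for that fit are not given.

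**Figure D3:**
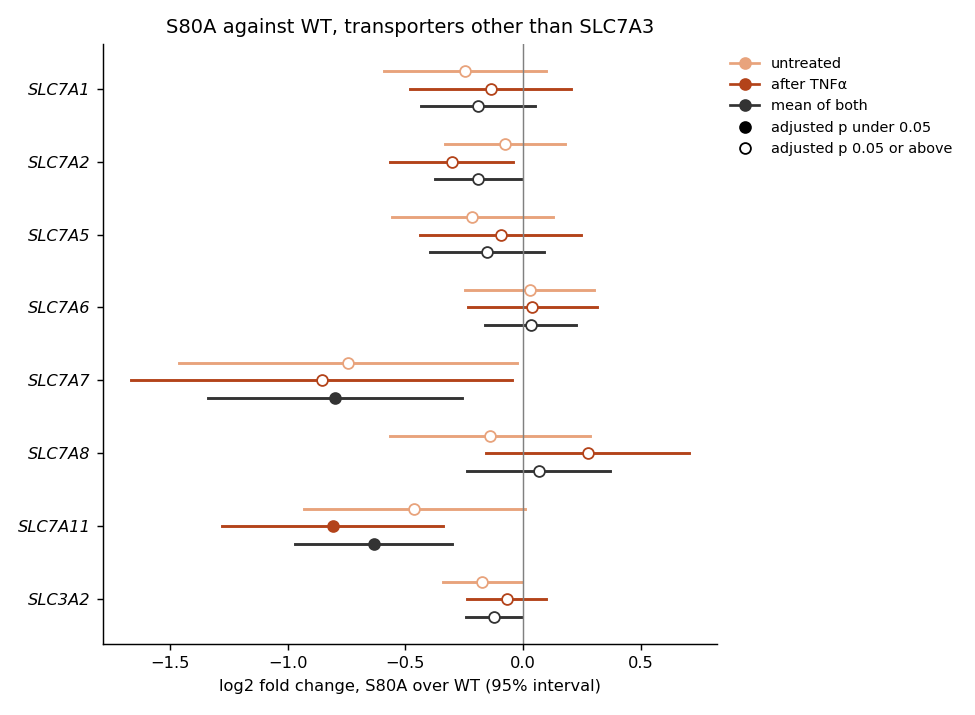
Log2 fold changes of S80A over WT (x axis) with 95% intervals for the 8 transporters other than SLC7A3, in untreated cells, after TNFα and over both conditions. Filled points passed an adjusted p of 0.05: SLC7A11 after TNFα (-0.81) and over both conditions (-0.64), and SLC7A7 over both conditions (-0.80). SLC7A7 passed the filter on low counts through the WT libraries.

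With every library kept, the light chains together, set against the heavy chain, differed between the genotypes by less than the SD of the replicates. SLC7A5 made up 81.0 of the 107 RPKM summed over the light chains in WT cells (means, n = 6), so the ratio mostly follows that gene. The summed level of SLC7A5, SLC7A6, SLC7A7, SLC7A8 and SLC7A11 per level of SLC3A2 was 0.971 ± 0.099 (SD, n = 3) in untreated WT cells and 0.963 ± 0.214 in untreated S80A cells. After TNFα it was 0.991 ± 0.116 in WT cells and 0.971 ± 0.146 in S80A cells. Without replicate 2 it was 1.074 ± 0.134 (n = 2) in untreated S80A cells, above the untreated WT mean by more than the WT SD. The size of this ratio depends on the transcript lengths used, since it became 3.05 in WT and 3.01 in S80A cells with the union of all exons in place of the MANE transcript.

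Other members of both families were at or near 0 in both genotypes. SLC7A4, SLC7A9, SLC7A10, SLC7A13, SLC7A14 and SLC3A1, the heavy chain of kidney and gut, were not tested because of low counts. The highest of them in any library was SLC7A10 with 5 counts, and SLC7A13 had 0 in all. A count of 0 allows up to 3 counts per library.

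No transporter passed the test for TNFα in either genotype. With edgeR 0 of 9 were called in WT cells, where 0.688% of all genes were called, and 0 of 8 in S80A cells, where 1.26% of all genes were called. SLC7A3 is left out of the second count, since it passed the filter through the WT libraries and had 1 read per condition in S80A cells. At an unadjusted p under 0.05 there were 0 and 1, and DESeq2 also called 0 in each. The 1 was SLC7A2 in S80A cells, with a log2 difference of -0.39 ± 0.12 (SE, adjusted p = 0.230) and no overlap between treated and untreated libraries. Its value in WT cells was -0.16 ± 0.12 (adjusted p = 0.997).

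Among the remaining cationic transporters, SLC7A1 differed by 0.21 ± 0.16 in WT cells and 0.32 ± 0.16 in S80A cells after TNFα (adjusted p = 0.997 and 0.562). Without replicate 2 of untreated S80A cells the SLC7A1 value in S80A cells was 0.14 (adjusted p = 0.901), below that in WT cells. SLC7A3 differed by -0.20 ± 0.22 in WT cells (adjusted p = 0.997), and in S80A cells, with 1 read in each condition, no fold is given. SLC7A11 differed by 0.24 ± 0.22 in WT cells and -0.11 ± 0.22 in S80A cells (adjusted p = 0.997 and 0.912), the latter -0.26 (adjusted p = 0.890) without that library. When the interaction between genotype and TNFα was tested, 0 of 8 transporters other than SLC7A3 were called, as were 0% of all genes, with 0 of 8 at an unadjusted p under 0.05 and 0 called with DESeq2.

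**Figure D4:**
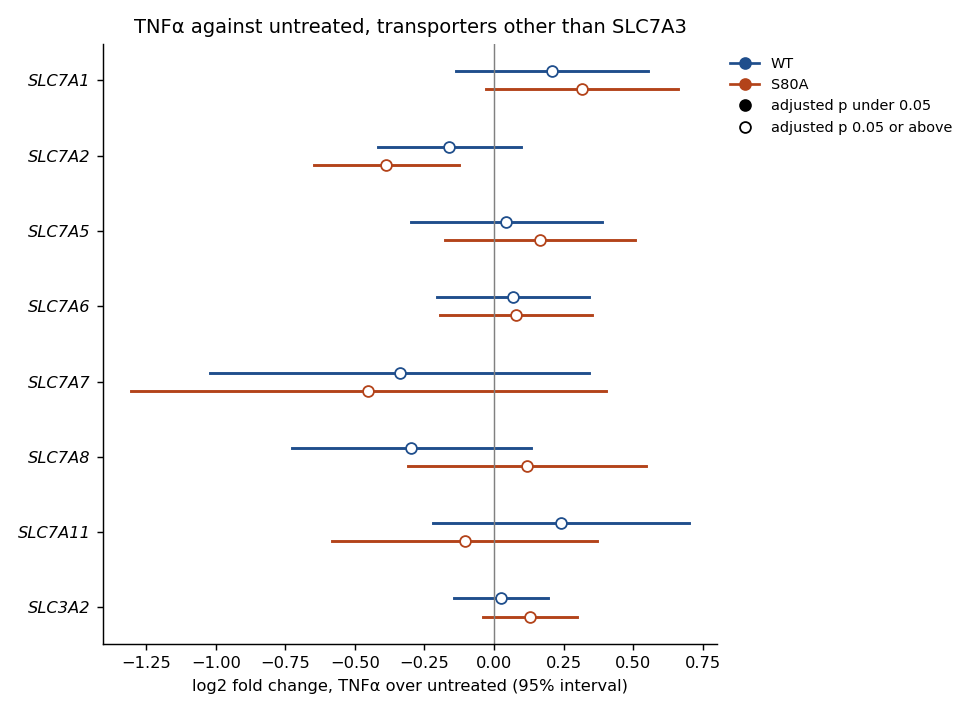
Log2 fold changes of TNFα-treated over untreated cells (x axis) with 95% intervals for the 8 transporters other than SLC7A3, in WT and S80A cells. No point passed an adjusted p of 0.05, and the interval of SLC7A2 in S80A cells (value -0.39) is the only 1 of 16 that leaves out 0.

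Genes that respond to amino acid shortage were examined next, as 31 genes of the ATF4 pathway. Over both conditions 1 of 31 was higher in S80A cells and 8 were lower, where 16.7% of all genes were called and 9.47% were lower. The median log2 difference of the list was -0.09 and that of all genes 0.005. ATF5, a transcription factor of the pathway, was higher by 0.30 ± 0.08 (SE, adjusted p = 0.0185). The 4 lower genes with the largest differences were PYCR1 (-0.39, adjusted p = 7.11e-04), which makes proline, DDIT4 (-0.38, adjusted p = 0.0140), an inhibitor of mTORC1, MTHFD2 (-0.31, adjusted p = 0.00195), of mitochondrial folate metabolism, and PSAT1 (-0.24, adjusted p = 0.00716), of serine synthesis. PYCR1 had between 3809 and 4158 normalised counts in WT libraries and between 2609 and 3472 in S80A libraries, and the genotypes did not overlap.

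Among the familiar genes of this list, 5 did not pass the test. ATF4 itself differed by -0.14 (95% interval -0.29 to 0.01, adjusted p = 0.190), ASNS, which makes asparagine, by -0.09 (adjusted p = 0.373), DDIT3 by 0.15 (adjusted p = 0.346), TRIB3 by 0.13 (adjusted p = 0.277) and CHAC1 by -0.16 (adjusted p = 0.630). These 5 were picked after their values were seen, for being familiar. They do not stand for the list, in which 8 of 31 genes were called lower, PHGDH, PSPH and SHMT2 among them. As background, ATF4 is known to be controlled largely at translation, which RNA-seq does not measure.

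Other amino acid transporters were called in each direction. Of 21 listed, 17 were tested, and over both conditions 2 were higher and 2 lower in S80A cells, where 16.7% of all genes were called. SLC1A4 (ASCT1), a carrier of alanine, serine and cysteine, was higher by 0.59 ± 0.14 (SE, adjusted p = 0.0118), with between 288 and 454 normalised counts in WT libraries and between 420 and 695 in S80A libraries. PQLC2, a lysosomal exporter of cationic amino acids, was higher by 0.25 ± 0.07 (adjusted p = 0.0327), and by 0.39 ± 0.10 (adjusted p = 0.0374) after TNFα. Neither call of PQLC2 was stable. Over both conditions it was lost in 8 of the 12 fits that left out 1 library (adjusted p up to 0.0860). After TNFα it was also lost in 8 of 12 (adjusted p up to 0.162). SLC43A1 (LAT3), a carrier of large neutral amino acids, was lower, at -0.46 ± 0.10 (adjusted p = 0.00698), and SLC1A3, a glutamate carrier, was lower at -0.35 ± 0.08 (adjusted p = 0.00558).

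For the 3 lists that follow, counts over both conditions stand against 16.7% of all genes called and 9.47% called lower. In arginine and polyamine metabolism 1 of 20 tested genes of 25 was called, NOS2, an enzyme that uses arginine, which was lower, at -0.62 ± 0.15 (SE, adjusted p = 0.0118) at a mean of 38.3 normalised counts in S80A cells and 59.3 in WT cells. In amino acid sensing by mTORC1 1 of 25 was called over both conditions, FLCN, which acts on the Rag GTPases, at -0.43 ± 0.08 (adjusted p = 0.00174). In S80A cells SESN3, an inhibitor of mTORC1 signalling, was the only 1 of 106 listed genes called for TNFα (1.26% of all genes), at -0.73 ± 0.15 (adjusted p = 0.0209), and the call was lost without replicate 3 of untreated or replicate 1 or 3 of TNFα-treated S80A cells. Of 13 tested genes in the list of cystine, glutathione and related redox genes 2 were lower, NQO1 (-0.37, adjusted p = 0.0108) and GSS (-0.27, adjusted p = 0.00651). Of these, GSS encodes glutathione synthetase.

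Over all these lists 106 of 122 genes were tested. In untreated cells 5 were called, all lower in S80A cells (PYCR1, SHMT2, SLC43A1, FLCN and GSS), where 6.26% of all genes were called. After TNFα 7 were called, where 7.36% of all genes were called, 2 higher (ATF5 and PQLC2) and 5 lower (SLC1A3, MTHFD2, PSAT1, PSPH and NQO1). Over both conditions 17 were called, 3 higher and 14 lower, against 16.7% of all genes. Leaving out 1 library moved the count by over 1.5 times in untreated cells (to between 1 and 3) for every library but replicate 3 of TNFα-treated WT cells and replicates 1 and 2 of untreated S80A cells. After TNFα it did so (to between 2 and 4, or 11 without replicate 2 of untreated S80A cells) for every library but replicate 1 of untreated WT cells, replicate 3 of TNFα-treated WT cells and replicate 1 of untreated S80A cells. Over both conditions the count stayed between 12 and 22. In WT cells TNFα called 0 of 106 with edgeR and with DESeq2, and 5 at an unadjusted p under 0.05.

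**Figure D5:**
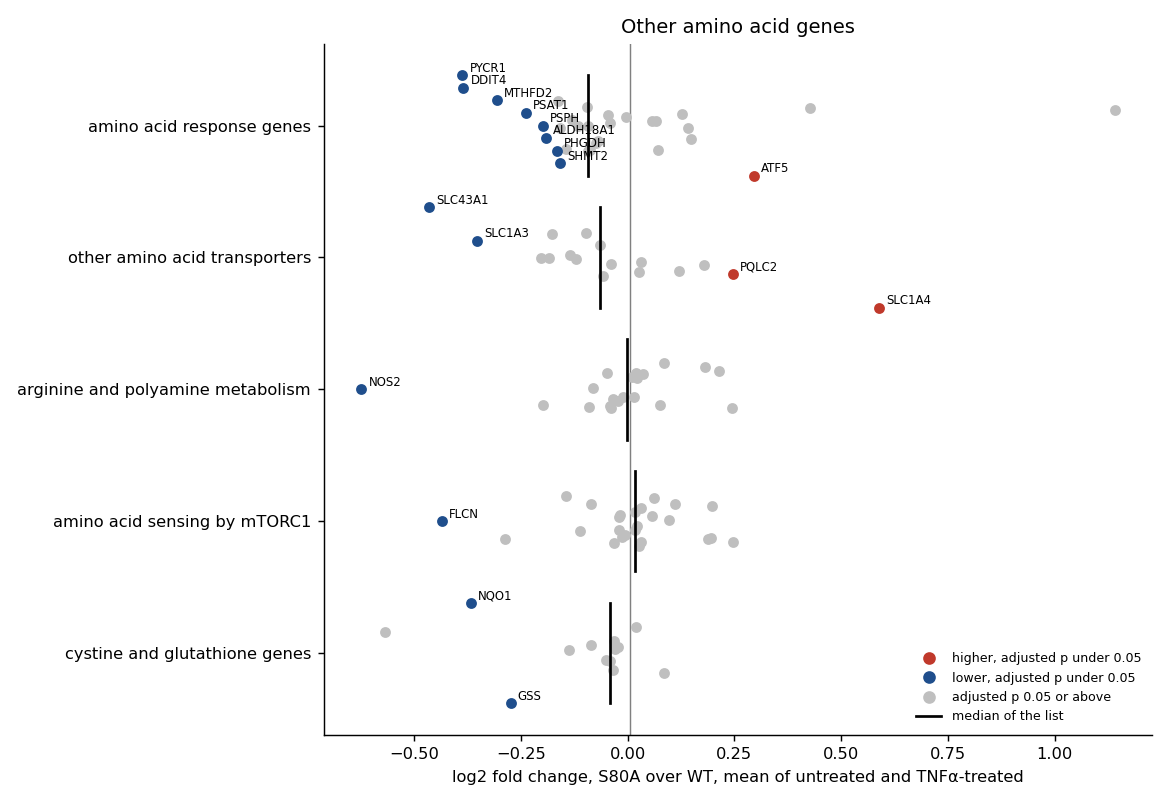
Log2 fold changes of S80A over WT over both conditions (x axis) for the tested genes of 5 lists (rows), with genes past an adjusted p of 0.05 named and coloured, the median of each list as a black bar and the median of all genes as a grey line. Of the amino acid response genes past the threshold 8 were lower and 1 higher, and of all 31 tested 22 had a negative value and 9 a positive value.

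The genes whose log2 CPM (depth-scaled counts) followed each transporter most closely over the 12 libraries were picked by Pearson's r. For SLC7A3 they were BCHE (r = 0.995), CTSZ (0.994), IGFBPL1 (0.994), MID1 (0.993) and RP11-438N16.1 (0.991), all of which were lower in every S80A library than in any WT library. BCHE had between 42.0 and 66.4 normalised counts in WT libraries and at most 1.20 in S80A libraries. Such values of r rest on the step between 2 genotypes and are given as a description.

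For SLC7A11 the closest were NUFIP2 (r = 0.979), CLTC (0.964) and ZNF585B (0.962), and for SLC7A1 they were C2orf44 (0.981), ATP2A2 (0.968) and NTN1 (0.964). For SLC3A2 they were TMEM39B (0.950), TMED1 (0.902) and EIF1AD (0.900). The points share their libraries, depth and genotypes.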

How the data were processed

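RNA-seq was performed on 12 samples, 3 per group. The authors prepared poly(A) stranded libraries, sequenced single-end 75 bp reads, aligned them to GRCh38 with HISAT and counted reads per gene with HTSeq-count. Versions and the strand setting are not given in the sources used here. The deposited values used here are raw read counts per gene symbol. Further deposited tables hold the authors' own fold changes and p-values for TNFα and were not used.

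Of 33121 rows, 28 with a date in place of a gene symbol were dropped (at most 0.233% of counts), and 33093 were kept. Counts were normalised with TMM and tested with edgeR 4.0.16 (quasi-likelihood F test, all 4 groups in 1 fit, R 4.3.3) on 14383 genes that passed filterByExpr (minimum count 10), with Benjamini-Hochberg adjustment over all of them and a threshold of 0.05. The comparison over both conditions contrasts the mean of the S80A groups with the mean of the WT groups. Levels per length used MANE transcripts of GENCODE 44. On simulated counts for TNFα in WT cells (14239 genes, 200 changed), 95.5% of changes of log2 1 were recovered, with 2.49% false calls. The simulation took its spread from the trend over genes and held no outlying library. Changes were planted only in genes above a set mean count, which SLC7A7 does not reach. The share recovered therefore does not hold for smaller differences or for SLC7A7.

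The members and lists were chosen with earlier results of these data known. All members are named, along with up to 4 genes per list and comparison with the largest change among those past the threshold, up to 5 neighbours on each side of SLC7A3 and the genes most like 4 members over the samples. Counts over the amino acid lists for both conditions together were added after the data were seen. Replicates differed by more than sampling noise (chi-square per gene 2.85 to 37.0). Alternatives were DESeq2 1.42.0, its size factors, total counts, other filters, fits of only the groups compared, a replicate block and leaving out each library.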

Additional observations from a re-analysis of the deposited data

How the results depend on the processing

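SLC7A11 over both conditions passed the threshold under every alternative run. After TNFα, 1 of 8 transporters other than SLC7A3 was called, and 0 with total counts in place of TMM, where SLC7A11 had an adjusted p of 0.0612. Over both conditions 2 of 8 were called, and 1 with DESeq2, without a filter or with at least 10 counts in every sample. SLC7A7 was the gene lost, and with at least 10 counts in every sample it was not tested. Of the amino acid genes, TNFα called 0 in WT cells, and 1 without a filter or with the replicate block. In S80A cells TNFα called 1, and 3 with DESeq2, without a filter or with the replicate block, and 0 with only the samples compared. S80A against WT called 5 in untreated cells (1 with only the samples compared, 10 with the replicate block) and 7 after TNFα (4 with total counts, 11 with the replicate block). The cause of these shifts was not tested.

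Leaving out each of the 12 libraries in turn gave between 0 and 2 transporters after TNFα and between 1 and 3 over both conditions. For the amino acid genes it gave 0 to 1 (TNFα, S80A), 1 to 6 (untreated), 2 to 11 (after TNFα) and 12 to 22 (both conditions). Values that changed sign had not passed the test. Their ranges were -0.34 to 0.059 for SLC7A3, -0.012 to 0.16 for SLC7A6 and -0.056 to 0.071 for SLC3A2 (TNFα, WT). For TNFα in S80A cells they were -0.0048 to 0.39 for SLC7A5, -0.053 to 0.20 for SLC7A6, -0.10 to 0.35 for SLC7A8 and -0.35 to 0.13 for SLC7A11. In untreated S80A against WT they were -0.18 to 0.0067 for SLC7A2, -0.10 to 0.16 for SLC7A6 and -0.37 to 0.077 for SLC7A8. After TNFα they were -0.26 to 0.0023 for SLC7A5, -0.049 to 0.13 for SLC7A6 and -0.12 to 0.012 for SLC3A2, and over both conditions -0.029 to 0.10 for SLC7A6 and -0.047 to 0.18 for SLC7A8.

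The labels give replicate numbers in all groups without saying that a number marks a shared day or batch, and 9 of 18 same-numbered pairs had a correlation of deviations over 0.1 (range -0.099 to 0.495), so the numbers were not taken as pairs. All 6 pairs of replicates 1 were over 0.1 (0.116 to 0.495), and a library was most like its own number in 22 of 36 comparisons, each among 3 numbers, which is a hint from the data and not from the design. The replicate block changed no call among the transporters. At 3 samples per group, SLC7A7 and the SLC7A3 reads in S80A cells are limited by counts and the remaining transporters by replicate spread.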
